A study of Mus musculus with 6 samples.

Results

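The cadherin and protocadherin genes of mouse were followed as 1 family of cell adhesion molecules in the medial prefrontal cortex, a frontal brain area that takes part in the learning and suppression of fear. Members were the probe sets annotated to exactly 1 gene symbol that was either Cdh with a number or began with Pcdh, and Cdh5, the cadherin of blood vessel lining, was left out. A probe set is a group of short array probes that together read 1 transcript. This gave 99 of the 45101 probe sets on the array, which read 55 of 18194 genes. The symbols came from the platform annotation alone, and the rule itself used no expression value. It was set, like the gene lists used below, with earlier results of these data known.

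All 6 animals were inbred 129S1/SvImJ males, 8 to 10 weeks old, and the tissue of both hemispheres was collected 2 h after the end of fear extinction training. Extinction training presents a feared cue repeatedly without its outcome, and every mouse of both groups had it. The control group held mice 1, 5 and 9 on a control diet, and the ZnR group held mice 3, 7 and 11 on a diet that the labels describe as a zinc diet. The labels do not give its composition, and they name no transgene, drug or pooling of animals. Each mouse gave 1 Affymetrix Mouse430_2 array, and with so few arrays the precision of all values is limited.

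Classical cadherins hold cells together by binding the same or a closely related cadherin on the neighbouring cell when calcium is present, and their inner ends attach to actin through catenins. Protocadherins share the outer cadherin repeats but not the catenin-binding tail, and signal through other partners. In cortex both kinds help to sort neurons into layers and areas, to match axons with their targets and to shape synapses, and the clustered protocadherins give single neurons a surface identity from a choice of alternative promoters.

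The results turn on Cdh8, Cdh9 and Pcdh10, which had the largest differences among the members outside the clusters, and a promoter window of each is shown. It covers 1 RefSeq start per gene, and other transcripts of the gene may start elsewhere. Each window runs from 250 bases before to 50 bases after the annotated start, 5′ to 3′ on the strand of the gene, from RefSeq on GRCm38.p6. Capitals mark the core of a metal response element (TGCACNC or TGCGCNC) or of a cyclic AMP response element (TGACG), searched on both strands; matches that overlap were merged into 1 run of capitals. The Cdh8 window lies at chr8:99416422-99416721 on the minus strand, the Cdh9 window at chr15:16728665-16728964 on the plus strand and the Pcdh10 window at chr3:45378148-45378447 on the plus strand.
Cdh8: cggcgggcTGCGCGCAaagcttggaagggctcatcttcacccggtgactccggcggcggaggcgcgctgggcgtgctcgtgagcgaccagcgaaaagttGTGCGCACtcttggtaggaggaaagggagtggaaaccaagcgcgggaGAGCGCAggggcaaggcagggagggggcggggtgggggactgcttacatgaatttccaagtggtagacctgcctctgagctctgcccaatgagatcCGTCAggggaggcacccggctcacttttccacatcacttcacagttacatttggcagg
Cdh9: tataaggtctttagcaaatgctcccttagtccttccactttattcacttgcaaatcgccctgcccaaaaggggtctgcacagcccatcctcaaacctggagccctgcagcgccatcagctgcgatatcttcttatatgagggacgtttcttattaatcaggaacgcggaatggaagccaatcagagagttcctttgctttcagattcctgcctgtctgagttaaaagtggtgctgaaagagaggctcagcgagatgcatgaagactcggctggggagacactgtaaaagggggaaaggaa
Pcdh10: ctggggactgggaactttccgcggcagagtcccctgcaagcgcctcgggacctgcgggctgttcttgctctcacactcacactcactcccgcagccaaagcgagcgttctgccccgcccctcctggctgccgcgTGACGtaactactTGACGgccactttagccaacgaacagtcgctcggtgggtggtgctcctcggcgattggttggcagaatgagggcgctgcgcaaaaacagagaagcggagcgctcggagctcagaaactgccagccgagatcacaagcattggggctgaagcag

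The Cdh8 window held 5 matches to the metal response core in 3 stretches, where matches on opposite strands overlapped, and 1 match to the cyclic AMP response core. The Pcdh10 window held 2 cyclic AMP response cores and no metal response core. Neither core was found in the Cdh9 window. Its GC content was 48.7%, against 62.3% in both other windows and a median of 52.7% over all windows, and it held 8 CpG pairs against 21 for Cdh8, 24 for Pcdh10 and a median of 7. RefSeq windows were found for 20 member genes, 23 windows in all. The metal response core occurred in 5 of these 23 (21.7%) and in 25.7% of all 32851 windows, and the cyclic AMP response core in 17.4% and 20.8%. An E-box (CANNTG) was present in 56.5% of member windows and 72.3% of all windows, and the letters TATAAA in 8.7% and 13.6%. A match describes the letters only and not a bound site.

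Signal of the 18S ribosomal RNA probe sets was low on 2 arrays, at 9.09 log2 units for control mouse 1 and at 8.44 for ZnR mouse 3, while the other 4 arrays had 10.88 to 12.38. These 2 arrays were treated as a possible batch with 1 mouse of each diet, and differences within this pair and among the other 4 mice are given beside the main values. Markers of cell types also differed between the diets. The mean level of 6 markers of cortical excitatory neurons was 9.04 to 9.16 log2 units in control mice and 8.04 to 8.24 in ZnR mice, and 5 of the 6 fell past the limma threshold. All 9 markers of striatal medium spiny neurons had higher means in ZnR mice (10.31 to 10.78 in control and 10.96 to 11.20 in ZnR, 2 past the threshold), as had all 5 of septal and ventral forebrain neurons (7.90 to 8.96 and 9.21 to 9.39, 1 past it) and all 6 of ventricle-lining cells (4.22 to 5.14 and 5.65 to 5.91, 2 past it). All 6 astrocyte markers were higher too (10.64 to 10.71 and 10.91 to 10.98, 1 past it), as were all 5 of oligodendrocyte precursors (7.76 to 7.78 and 7.94 to 8.15, none past it). The mean level of 7 interneuron markers overlapped between diets (10.02 to 10.31 and 10.05 to 10.22). Of these markers 4 were higher and 3 lower in ZnR mice, and 1 of the lower ones, Vip, was past the threshold. The mean levels of leptomeningeal, endothelial, oligodendrocyte and microglia markers overlapped too, with none past it. Yet all 4 leptomeningeal, all 5 endothelial and all 5 oligodendrocyte markers had higher means in ZnR mice (0.70, 0.17 and 0.34 log2 units on average). All 6 microglia markers had lower ones (-0.10 on average). In whole tissue, fewer cells of a type and less RNA per cell cannot be told apart, and the part of these markers in the values below was not tested.

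No member of the family, as set by the symbol rule, passed the threshold of an adjusted p of 0.05 between ZnR and control mice. Cdhr1, a cadherin outside that rule, did pass it and is given with the partners below. Of the 99 member probe sets, 66 passed the filter on low values (a log2 value above 4 on at least 3 arrays) and were tested with limma, with p-values adjusted by Benjamini and Hochberg over the 25381 probe sets that passed. None was called higher and none lower, where 1.47% of all probe sets tested were called. At an unadjusted limma p under 0.05 there were 9 of 66, 4 higher and 5 lower, which is 13.6% against a background of 17.0%. The values of the 2 diets did not overlap for 14 of 66 (21.2%), 6 higher and 8 lower, against 23.7% of all probe sets tested. All 3 shares lie near the background, and several probe sets read the same gene, so the small gaps are not read as a trait of the members.

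The differences were small in both directions. Means were higher in ZnR mice for 30 member probe sets and lower for 36, and the median difference was -0.04 log2 units, against 0.02 over all probe sets. Single differences ran from -0.74 for Cdh9 to 0.60 for a probe set of Cdh8. The median size of a difference, without sign, was 0.134 log2 units for the members and 0.122 for all probe sets. The unadjusted 95% interval lay inside a 2-fold change for 64 of the 66 and inside a 1.5-fold change for 51, which is 97.0% and 77.3%. Over all probe sets these shares were 96.5% and 79.7%. The 2 with an interval reaching past 2-fold were Cdh9 and a probe set of Cdh7.

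**Figure D1:**
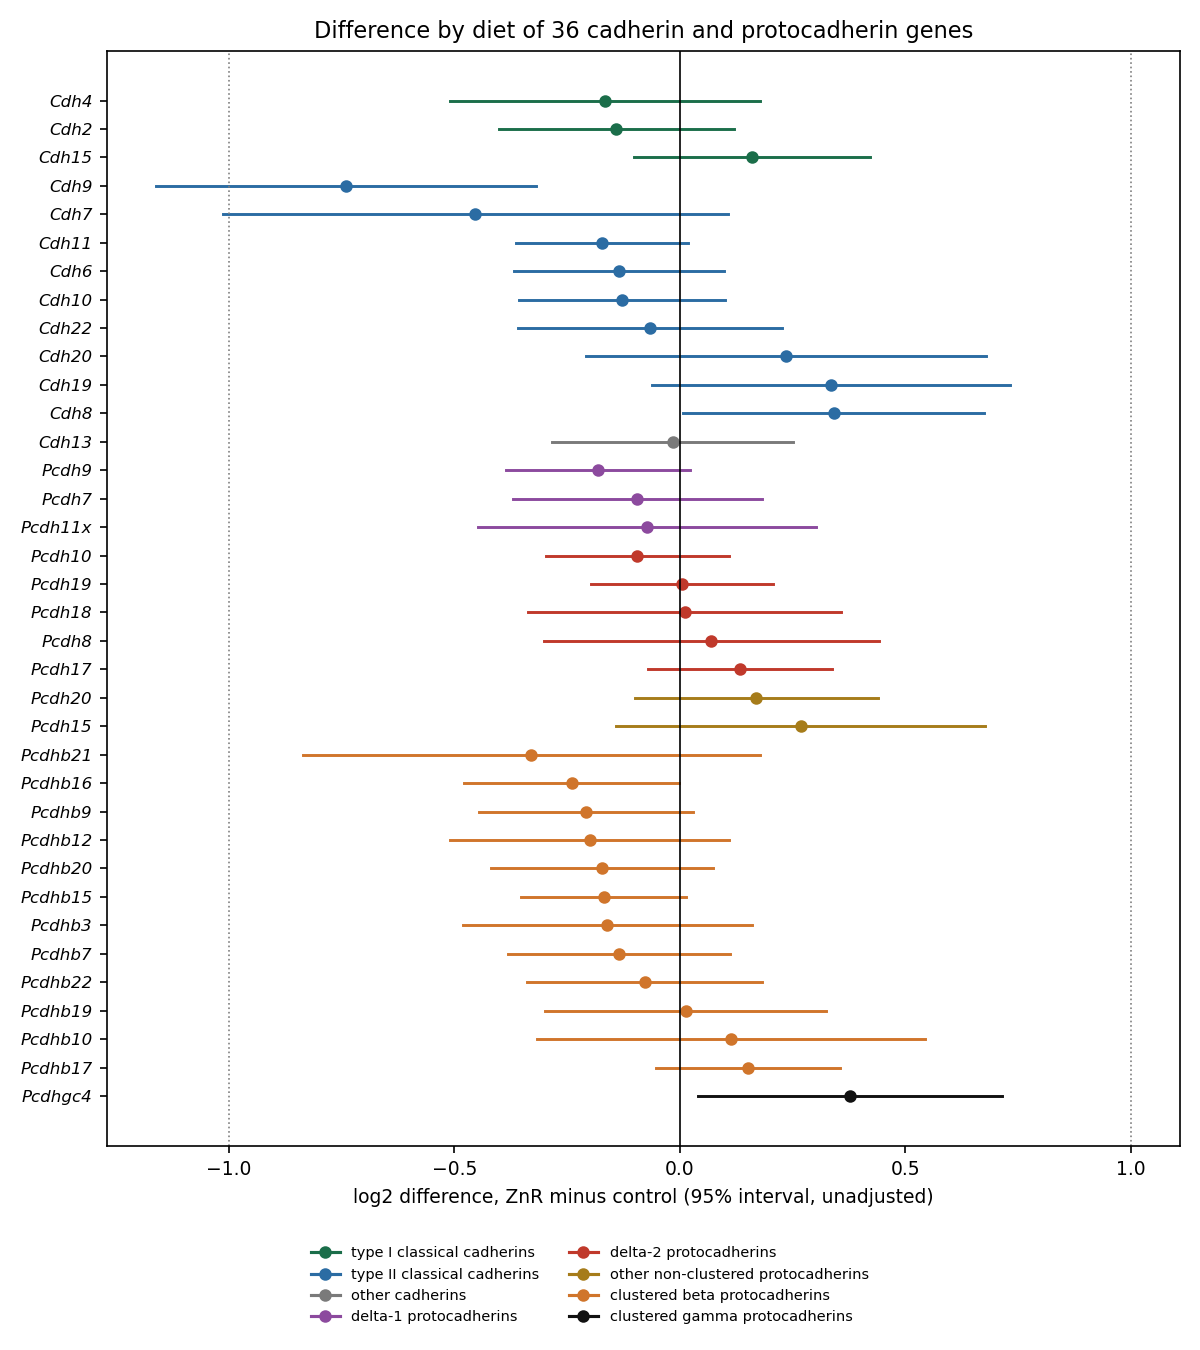
Difference between ZnR and control mice, in log2 units, of the 36 member genes tested, each represented by the probe set of highest mean and coloured by family group. Points are differences of means over 3 mice a group, lines are unadjusted 95% intervals, and dotted lines mark a 2-fold change; all intervals but those of Cdh9 and Cdh7 stay between them.

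Type II classical cadherins held both ends of the range. These cadherins mark subsets of neurons and fibre tracts, and 17 probe sets of 9 genes were tested, 8 higher and 9 lower, with a median difference near 0. An unadjusted limma p under 0.05 was reached by 4 of the 17 (23.5%, against 17.0% of all probe sets tested), of which 3 read the single gene Cdh8. Cdh8, which marks groups of cortical and other forebrain neurons and their connections, was read by 3 probe sets. The first given here, 1455365_at, was singled out after its values were seen, as was 1441690_at, while 1422052_at stands for the gene by its highest mean. Probe set 1455365_at read 7.57, 7.43 and 7.84 log2 units in control mice 1, 5 and 9 and 8.06, 8.23 and 8.34 in ZnR mice 3, 7 and 11. Every ZnR mouse lay above every control mouse. The difference was 0.60 ± 0.13 log2 units (SE, n = 3 mice per diet), a 1.52-fold higher value with an interval of 0.30 to 0.90, and the adjusted p in limma was 0.0714. The low-18S pair alone gave 0.50 and the other 4 mice 0.65. With trended and robust variance estimates the adjusted p of this probe set was 0.0357, and with arrays weighted by their spread it was 0.0113, so the call depends on the model.

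The other 2 probe sets of Cdh8 lay on the same side. Probe set 1441690_at read 4.22, 4.30 and 4.38 in control mice and 4.58, 4.65 and 4.61 in ZnR mice, a level near the filter. Its difference was 0.31 ± 0.08 (SE, n = 3; limma adjusted p = 0.116). For 1422052_at, the probe set with the highest mean, control mice read 8.14, 8.60 and 8.57 and ZnR mice 8.63, 8.79 and 8.90. Here control mouse 1 stood apart below the rest, while the nearest control and ZnR mice differed little. The difference was 0.34 ± 0.14 (SE, n = 3; limma adjusted p = 0.283), with 0.49 within the low-18S pair and 0.27 among the other 4 mice. Without control mouse 1 it was 0.19. Thus the diets did not overlap on any of the 3 probe sets of Cdh8, and none passed the threshold. Probe sets of 1 gene read the same RNA samples and are not separate replicates.

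Cdh9, a type II cadherin known for its part in specific synapses, had the lowest difference of all members. Its single probe set read 9.53, 9.16 and 9.60 log2 units in control mice 1, 5 and 9, and 8.36, 8.98 and 8.73 in ZnR mice 3, 7 and 11. All ZnR mice lay below all control mice, with ZnR mouse 3 the lowest and control mouse 5 close to ZnR mouse 7. The difference was -0.74 ± 0.18 log2 units (SE, n = 3 per diet), 1.67-fold lower in ZnR mice with an interval of -1.16 to -0.32, and the adjusted limma p was 0.0977. Within the low-18S pair the difference was -1.17 and among the other 4 mice it was -0.53. With the trended, robust variance estimate the adjusted limma p was 0.0438, while with weighted arrays Cdh9 was not called. Its call thus depends on the model too.

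**Figure D2:**
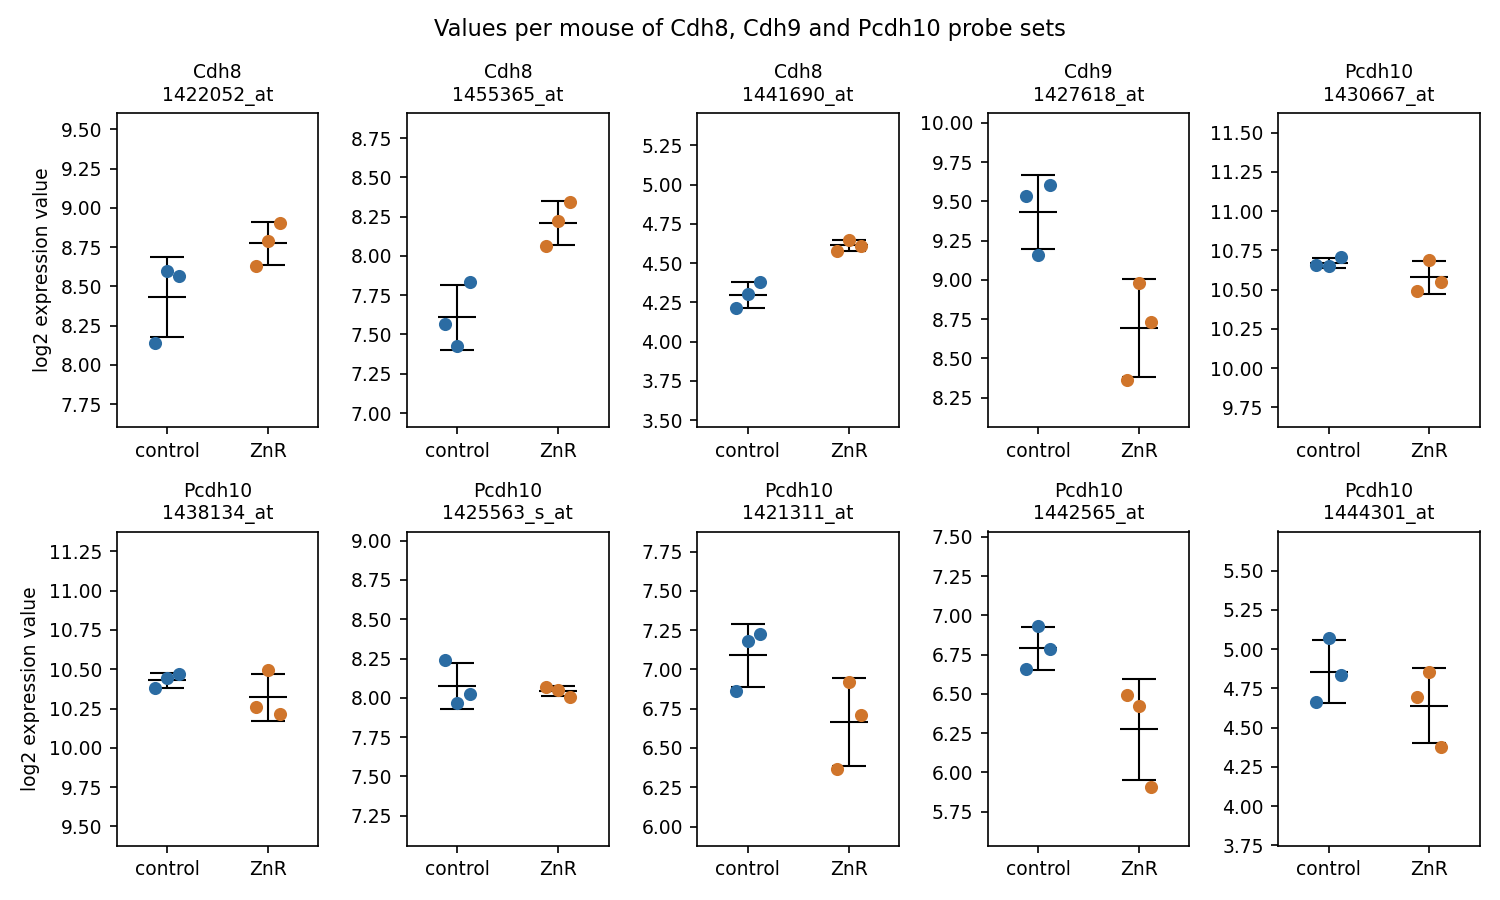
Deposited log2 expression value of each mouse for the probe sets of Cdh8 (3), Cdh9 (1) and Pcdh10 (6), control in blue and ZnR in orange. Points are mice, horizontal bars the mean ± SD of 3 mice, and each panel spans the same length of axis at its own level; the diets do not overlap in the panels of Cdh8 and Cdh9 and in 1 panel of Pcdh10.

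The remaining type II cadherins differed less or varied more between mice. Cdh11, found in neurons and in connective tissue cells, read 10.88, 10.73 and 10.81 in control mice and 10.65, 10.61 and 10.64 in ZnR mice. The groups did not overlap, but the difference was only -0.17 ± 0.08 (SE, n = 3; limma adjusted p = 0.338), and -0.08 at its other probe set. Cdh19, known from Schwann and oligodendrocyte lineage cells, read 6.50, 6.92 and 6.78 against 6.88, 6.91 and 7.40, a difference of 0.33 ± 0.17 (SE, n = 3; limma adjusted p = 0.372), where ZnR mouse 11 alone was high. Without that mouse the difference was 0.17. Beside it, the mean level of 5 oligodendrocyte markers was 11.12 to 11.28 in control mice and 11.18 to 11.88 in ZnR mice, all 5 higher on average and none past the threshold. Cdh7, a type II cadherin of neuron subsets, read 6.40, 6.74 and 6.99 in control mice and 6.22, 6.72 and 5.82 in ZnR mice. The groups overlapped, the difference was -0.45 ± 0.24 (SE, n = 3; limma adjusted p = 0.390; interval -1.01 to 0.11), and ZnR mouse 11 was the low one. Without it the difference was -0.23. Its other probe sets stood at -0.17 and 0.06, so the probe sets of Cdh7 disagreed in sign. Cdh6, Cdh10, Cdh20 and Cdh22 had differences of -0.13, -0.13, 0.24 and -0.07 with overlapping groups. The other probe sets of Cdh10 gave 0.01 and 0.04, on the other side of 0, and that of Cdh6 gave -0.0048.

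Type I cadherins and the anchored cadherin showed no difference beyond the spread of the mice. Cdh2, or N-cadherin, the main classical cadherin of synapses, read 11.72, 11.69 and 11.94 in control mice and 11.49, 11.78 and 11.65 in ZnR mice. The groups overlapped, and the difference was -0.14 with an interval of -0.40 to 0.12 (n = 3 mice per diet); the other Cdh2 probe set stood at 0.03. Cdh4, or R-cadherin, had -0.16 and -0.04, and Cdh15, known from muscle, 0.16. Cdh13, or T-cadherin, sits on the membrane by a lipid anchor without an inner domain. Its probe set 1434115_at read 10.16, 9.94 and 9.87 in control mice and 10.13, 9.91 and 9.87 in ZnR mice, a difference of -0.02 with an interval of -0.28 to 0.25. The mice of the 2 diets covered nearly the same range. The other Cdh13 probe sets gave 0.02 and -0.27, both with overlapping groups.

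Delta-1 protocadherins are non-clustered members with conserved motifs in the inner tail. All 7 probe sets tested, which read only 3 genes, had lower means in ZnR mice, from -0.30 to -0.07. Their median was -0.13 and none was past the threshold. Over all probe sets tested, 11770 of 25381 had lower means, and probe sets of the same gene are not separate replicates. Pcdh9 read 11.39, 11.52 and 11.58 log2 units in control mice and 11.28, 11.29 and 11.37 in ZnR mice. The groups did not overlap, though control mouse 1 and ZnR mouse 11 were almost level, and the difference was -0.18 ± 0.09 (SE, n = 3; limma adjusted p = 0.350). Its other probe sets stood at -0.09 and -0.13 with overlap. For Pcdh7, singled out after its values were seen, probe set 1427592_at read 5.72, 5.59 and 5.49 in control mice and 5.46, 5.27 and 5.18 in ZnR mice. These groups did not overlap (-0.30 ± 0.11, SE, n = 3; limma adjusted p = 0.215), while the other probe set of Pcdh7 tested gave -0.09 with overlap. A probe set of Pcdh7 below the filter went the other way, at 3.27, 3.42 and 3.33 in control mice and 3.49, 3.64 and 3.53 in ZnR mice, a difference of 0.21 without overlap. Pcdh11x gave -0.07 and -0.29.

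Delta-2 protocadherins, a related subgroup, include genes whose products regulate actin and synapse number. Of 15 probe sets tested, 9 had higher and 6 lower means, and all 6 lower ones read Pcdh10. Pcdh10 takes part in axon growth and in the removal of synapses, and it was singled out here after its values were seen. Probe set 1442565_at read 6.66, 6.93 and 6.79 in control mice and 6.49, 6.43 and 5.91 in ZnR mice. The groups did not overlap and ZnR mouse 11 was lowest. The difference was -0.52 ± 0.16 (SE, n = 3; limma adjusted p = 0.170), with -0.16 within the low-18S pair and -0.69 among the other 4 mice. Without ZnR mouse 11 it was -0.33. Weighting the arrays, where control mouse 5 counts far more than the others, gave an adjusted limma p of 0.0331 for 1442565_at. With trended, robust variances this probe set was not called.

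A further Pcdh10 probe set, 1421311_at, differed by -0.42 (limma adjusted p = 0.245) with overlap, and the remaining 4 by -0.22 to -0.03 with overlap. The latter included 1430667_at, the probe set with the highest mean, at -0.09 with an interval of -0.30 to 0.11. The size of the difference thus varied by probe set within the gene, and 1 of the 6, 1425563_s_at at -0.03, turned to 0.03 without the low-18S pair and to 0.05 with weighted arrays.

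Among the other delta-2 genes, Pcdh8, an activity-regulated protocadherin also called arcadlin, read 11.15, 11.22 and 11.70 in control mice and 11.29, 11.58 and 11.41 in ZnR mice. The groups overlapped and the difference was 0.07 (interval -0.30 to 0.44; 0.03 at its other probe set). Pcdh17, which acts at presynaptic sites and was singled out after its values were seen, did not overlap between diets at either probe set, but with small differences of 0.13 and 0.15 (limma adjusted p = 0.499 and 0.415), each 0.01 within the low-18S pair. Pcdh19, linked to an X-chromosomal epilepsy, gave differences from 0.0047 to 0.09, and Pcdh18 gave 0.01 and 0.04. Of the non-clustered members outside the delta groups, Pcdh20 read 7.29, 7.55 and 7.70 in control mice and 7.62, 7.71 and 7.72 in ZnR mice. These overlapped, with a difference of 0.17 and 0.05 at the other probe set. Pcdh15, known from hair cells of the inner ear, gave 0.27 and 0.08.

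**Figure D3:**
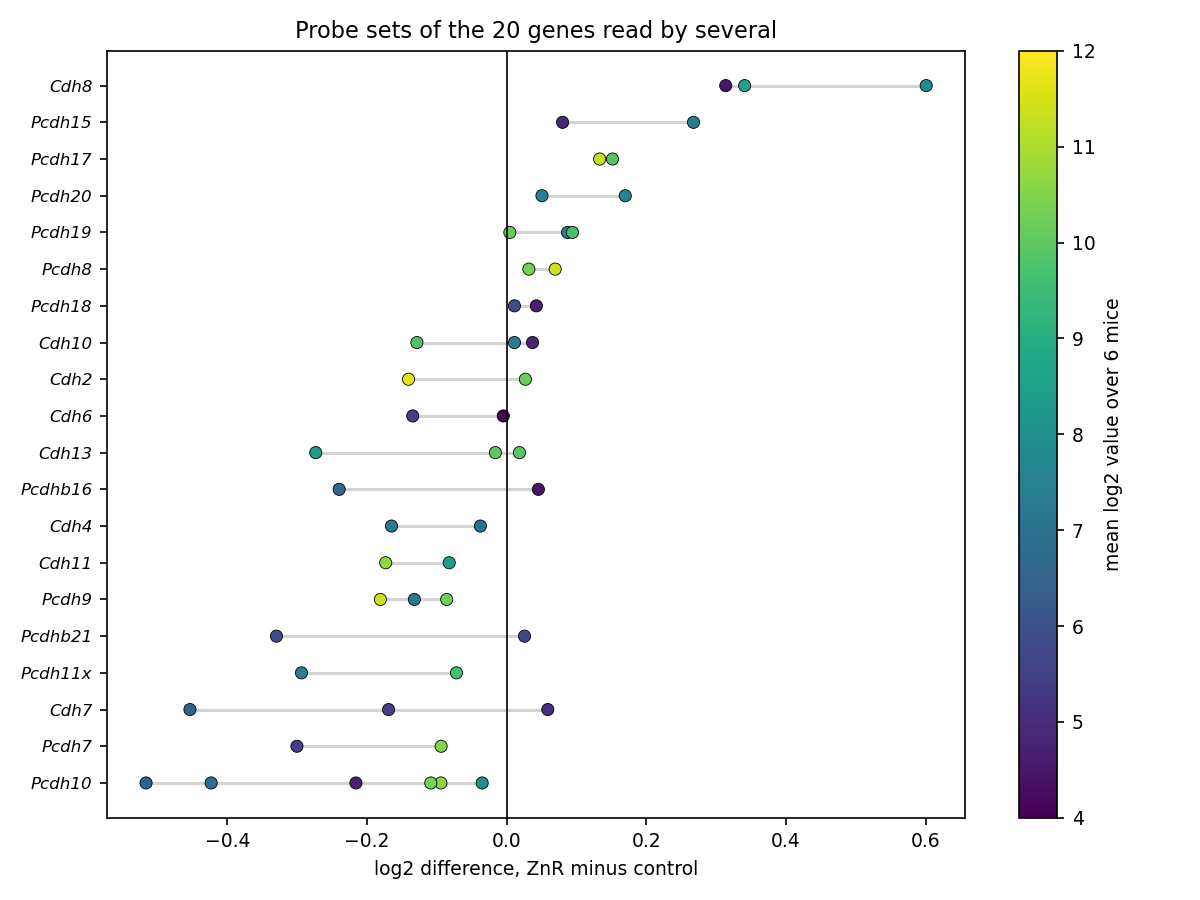
Difference between ZnR and control mice (log2 units) at every probe set kept, for the 20 member genes read by several; points are probe sets, joined within a gene and coloured by mean log2 value. All probe sets lie above 0 for 7 genes and below 0 for 7, and on both sides for 6; Pcdh10 spans -0.52 to -0.03 and Cdh8 0.31 to 0.60.

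Clustered protocadherins of the beta group, each made from a single exon with its own promoter, were tested at 14 probe sets of 12 genes, of which 5 had higher and 9 lower means, with a median of -0.15. None passed the threshold, and 1 of 14 (7.14%) reached an unadjusted limma p under 0.05, against 17.0% of all probe sets tested. Pcdhb16 read 6.80, 6.66 and 6.74 in control mice and 6.56, 6.60 and 6.32 in ZnR mice, which did not overlap. Its difference was -0.24 ± 0.10 (SE, n = 3; limma adjusted p = 0.292), while the other probe set of Pcdhb16 gave 0.05. Without ZnR mouse 11 the difference was -0.15. Pcdhb15 read 4.49, 4.48 and 4.40 against 4.32, 4.28 and 4.26, a difference of -0.17 without overlap (limma adjusted p = 0.332) at a level near the filter.

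Pcdhb20 read 7.82, 7.82 and 7.78 in control mice and 7.71, 7.77 and 7.43 in ZnR mice. Control mouse 9 and ZnR mouse 7 were almost level, and the difference without overlap was -0.17 (limma adjusted p = 0.467). Without ZnR mouse 11, the lowest, it was -0.072. Pcdhb9 gave 5.65, 5.94 and 5.88 against 5.60, 5.69 and 5.55, a difference of -0.21 with overlap (limma adjusted p = 0.356). Pcdhb17 was the beta gene that went the other way without overlap: control mice read 8.27, 8.28 and 8.22 and ZnR mice 8.29, 8.50 and 8.43. Its difference was 0.15 (limma adjusted p = 0.435), with 0.02 within the low-18S pair and 0.22 among the other 4 mice. The remaining 7 beta genes, read by 8 probe sets, ran from -0.33 for Pcdhb21 to 0.11 for Pcdhb10, all with overlap.

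Of the gamma cluster, only Pcdhgc4, a C-type isoform that neurons need to survive, had a probe set of its own. It read 5.59, 5.52 and 5.72 log2 units in control mice and 6.22, 5.68 and 6.06 in ZnR mice. ZnR mouse 7 lay below control mouse 9, so the groups overlapped. The difference was 0.38 ± 0.14 (SE, n = 3; limma adjusted p = 0.244), with 0.63 within the low-18S pair and 0.25 among the other 4 mice. The alpha genes share their last exons and were read only by 6 probe sets annotated to several genes, which are not members. Of the 4 tested, the 3 annotated to 14 alpha genes each had non-overlapping lower values in ZnR mice, with differences of -0.33, -0.31 and -0.38 (limma adjusted p = 0.159, 0.161 and 0.202), and the one annotated to 9 gave -0.23 with overlap. None passed the threshold, and such a probe set does not tell which alpha gene differed.

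Per mouse, the members did not shift together by diet. Of the 66 probe sets, 31, 33 and 44 lay above their own mean over all mice in control mice 1, 5 and 9, and 21, 46 and 26 in ZnR mice 3, 7 and 11. Control mouse 9 and ZnR mouse 7 thus had the most members above their mean, and the other 2 ZnR mice the fewest.

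**Figure D4:**
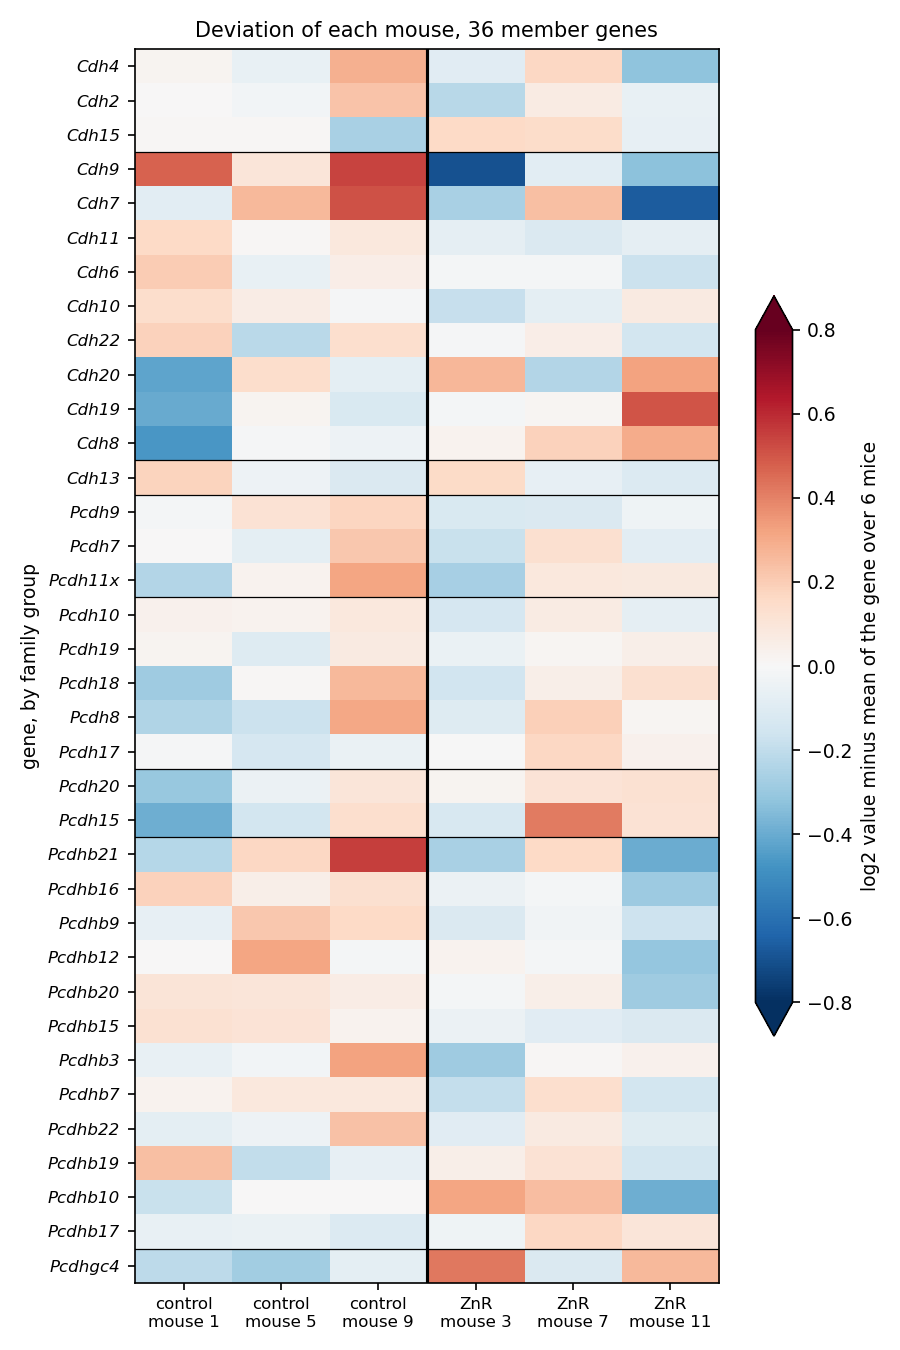
Deviation of each mouse (columns) from the mean over all 6 mice, in log2 units, for the 36 member genes tested (rows, by family group, each represented by the probe set of highest mean); red is above and blue below the mean, and the thick line parts the diets. Cdh9 is above its mean in all 3 control mice and below in all 3 ZnR mice, while most rows mix both colours within a diet.

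The 33 member probe sets that did not pass the filter read 19 genes that had no other probe set kept, and some genes that had. Their values ran from 2.11 to 3.94 log2 units, where GCRMA values are compressed, and their differences from -0.24 to 0.21. They include Cdh1 and Cdh3, the cadherins of epithelia, the type II member Cdh18, the kidney and gut cadherins Cdh16 and Cdh17, Cdh23 of hair cells, Cdh26, Pcdh1, Pcdh12 of vessels, and 10 beta genes. The lowest mean just inside the filter was 4.03 and the highest just outside 3.66.

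The partners of the family were read in the same fit from 5 lists of 53 genes, of which 48 genes and 98 probe sets were tested. A single probe set was called and it was lower: Cdhr1, a photoreceptor-type cadherin also found in olfactory bulb output neurons, read 8.92, 8.62 and 8.39 in control mice and 7.95, 7.69 and 7.70 in ZnR mice. Every ZnR mouse lay below every control mouse. Cdhr1 fell by 0.86 ± 0.15 log2 units (SE, n = 3; limma adjusted p = 0.0431), with -0.96 within the low-18S pair and -0.81 among the other 4 mice. Its adjusted p was 0.0547 to 0.145 when any 1 mouse was left out, which ended the call each time, and 0.113 without the low-18S pair. Across the partners, 25 of 98 (25.5%) reached an unadjusted p under 0.05 and 30 (30.6%) did not overlap, beside the background shares of 17.0% and 23.7% above.

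By list, the other large cadherins and calsyntenins had 17 probe sets of 12 genes tested, 6 higher and 11 lower. Of these 17, 11 (64.7%) reached an unadjusted limma p under 0.05 and 10 (58.8%) did not overlap, the highest shares among the partner lists. The other lists had 12.5% to 20% at that p, against 17.0% of all probe sets tested. Celsr2, Clstn1, Clstn2 and Dsg2 each entered both counts with several probe sets, which are not separate replicates. The lists were also chosen with earlier results of these data known, so their shares are not independent support. Beside Cdhr1 the smallest adjusted p-values among these large cadherins and calsyntenins were those of Dchs1 and Clstn2. Dchs1, a large cadherin that binds Fat4, gave 0.40 (limma adjusted p = 0.105) at a mean of 4.32, near the filter. Clstn2, a calsyntenin of synapses, gave -0.37 (limma adjusted p = 0.110), and -0.32 at its other probe set. Catenins and junction partners had 14 higher and 11 lower of 25, led by the actin linkers Vcl (0.37, limma adjusted p = 0.0933) and Ctnna1 (0.36, adjusted p = 0.138) and the p120 relative Arvcf (0.31, adjusted p = 0.160). The other probe set of Vcl tested gave 0.38 with overlap, at a mean of 4.07, near the filter. That of Ctnna1 gave 0.24 without overlap. That of Arvcf gave -0.04, with overlap and on the other side of 0. The Arvcf value of 0.31 was read at a mean of 4.26, near the filter, and an Arvcf probe set below the filter was lower without overlap (-0.15). Of the genes that cleave cadherins, 6 probe sets were higher and 2 lower, with Adam17, a membrane sheddase, at 0.31 (limma adjusted p = 0.144) and its other probe sets at 0.26 and 0.15. None of these passed the threshold.

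Effectors that link protocadherins to actin had 5 higher and 16 lower means of 21. Cyfip2, a subunit of the WAVE complex that drives actin branching, read 12.10, 11.95 and 12.01 in control mice and 11.66, 11.66 and 11.69 in ZnR mice. The groups did not overlap, and the difference was -0.35 ± 0.08 (SE, n = 3; limma adjusted p = 0.0844), with -0.19 at its other probe set tested. Brk1, a small subunit of the same complex, gave -0.22 (limma adjusted p = 0.225) and -0.06. Ryk, a Wnt receptor, went the other way, at 0.34 with overlap (limma adjusted p = 0.299) and 0.08 at its other probe set tested. Of the genes that control the choice of clustered protocadherin promoters, 16 probe sets were higher and 11 lower of 27. The cohesin subunits Stag2, Smc3 and Stag1, which help to loop enhancers to these promoters, had differences of 0.26, 0.30 and 0.27 (limma adjusted p = 0.178, 0.196 and 0.199). The other probe sets tested gave 0.26 for Stag2 and -0.08 to 0.22 for Stag1, so those of Stag1 disagreed in sign. Cohesin subunits did not all go up. Smc1a gave 0.15, -0.28 and -0.39, of which only -0.28 was without overlap, and Rad21 gave -0.09, 0.13 and -0.20 with overlap. No effector or cohesin probe set passed the threshold.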

How the data were processed

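Prefrontal RNA of 6 mice (500 ng each, 3′ IVT Express kit, per the labels' protocols) was read on Affymetrix Mouse430_2 arrays, 1 mouse per array and 3 per diet. The authors deposited 1 log2 value per probe set and mouse, made with R 2.15.1 and GCRMA 2.28.0 per the submitters' processing notes. GCRMA makes the arrays alike in distribution, so a change in total RNA cannot be seen, and compresses values near the floor. The values were used as deposited.

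Gene symbols came from the platform annotation. The 64 array controls were left out, and probe sets above a log2 value of 4 on at least 3 of 6 arrays were kept: 25381, or 56.4% of 45037. The diets were compared in limma 3.58.1 (R 4.3.3, lmFit and eBayes, 2-sided, Benjamini-Hochberg over all kept, threshold 0.05). No covariate was used, since the mouse numbers state no pairs. Errors are moderated standard errors and intervals are 95%, unadjusted. Folds are taken from the log2 differences. The fit was tested on simulated data.

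The members, lists, naming rule and tests were chosen with earlier results of these data known. Values per mouse were given for any member gene called and for the 12 others with the smallest p at their highest-mean probe set. They were also given for the gene of highest value in each family group. Partners were named where called, or as up to 3 genes per list by their probe set of smallest p. Smc1a and Rad21 were named beside them after their values were seen. Alternatives covered the level filter, renormalization, variance prior, array weights (statmod 1.5.0 for robust estimates), a block for the low-18S pair, 1 probe set per gene (11749 genes) and each mouse left out; leaving out the low-18S pair was added after seeing the data. Listed partners without a single-gene probe set, such as Cyfip1 and Ptk2, are not reported here. Promoter windows are those of RefSeq (GRCm38.p6). No genome build is named for the values. Plots used Python 3.11.15, pandas 2.3.3 and matplotlib 3.10.9.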

Additional observations from a re-analysis of the deposited data

How the results depend on the processing

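No member was called without the level filter, with a minimum of 5, after either renormalization, with the low-18S block, with 1 probe set per gene, without the low-18S pair or with any 1 mouse left out. Of the 66 member probe sets tested, trended, robust variances called 1 higher (Cdh8, 1455365_at) and 1 lower (Cdh9). With them 6 of 98 partner probe sets and 904 of all 25381 were called, against 1 and 373 in the main fit. Array weights called 2 of the 66 higher (Cdh8, 1455365_at at 0.76 and 1441690_at, limma adjusted p = 0.0339) and 1 lower (Pcdh10, 1442565_at, -0.67). With them 7 of 98 partner probe sets and 2003 of all 25381 were called. These weights rest on control mouse 5, weighted 6.57 against 0.51 to 0.99 for the others. In neither fit did the share of members called exceed the share over all probe sets, and the counts of members called are small. Without the low-18S pair, 0 partners and 1 probe set in all were called; with any 1 mouse left out, 0 partners in every case and 1 (without control mouse 5) to 109 (without ZnR mouse 7) probe sets in all. Leaving out 1 mouse, Cdh8 (1455365_at) ran from 0.51 to 0.71 and Cdh9 from -0.88 to -0.58. Of the 44 gene values recomputed, signs turned for 10 genes, all with differences of 0.11 or less in size. Without the low-18S pair, Pcdhb10 was -0.077, Pcdh18 -0.046 and Pcdh10 (1425563_s_at) 0.034. With array weights, Cdh22 was 0.12, Cdh13 0.017 and Pcdh10 (1425563_s_at) 0.049. Quantile normalization again gave -0.0095 for Pcdhb19 and -0.00023 for Pcdh18, and median shifting -0.0046 for Pcdh19. With 1 mouse left out, 10 genes crossed 0: Cdh13 (-0.095 to 0.069), Cdh22 (-0.19 to 0.0089), Pcdh8 (-0.032 to 0.24), Pcdh10 (1425563_s_at, -0.090 to 0.048), Pcdh11x (-0.21 to 0.067), Pcdh18 (-0.13 to 0.14), Pcdh19 (-0.045 to 0.041), Pcdhb10 (-0.015 to 0.34), Pcdhb19 (-0.081 to 0.14) and Pcdhb22 (-0.14 to 0.021). The cause of these shifts was not tested. The mouse numbers state no pairs between the diets, and no paired analysis was run. Values near the floor limit what can be seen of members outside the filter.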
